A study of Mus musculus with 6 samples.

Results

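The genes described here are 10 members of the PERK-ATF4 arm of the integrated stress response, chosen by symbol as Eif2ak3, Atf4, Atf5, Ddit3, Trib3, Ppp1r15a, Asns, Chac1, Sesn2 and Ddit4. They were found among 20673 genes in the deposited tables, and all 10 had enough reads to be tested. Liver RNA of C57BL/6J mice was sequenced after 3 days on a high-cholesterol diet (HCD, 3 mice) or on a regular diet (RD, 3 mice), with 1 library per mouse. HCD was a cocoa butter chow with added cholesterol and the bile acid salt sodium cholate and RD was a standard low-cholesterol chow. The mice of the study were adults of both sexes and of the same wild-type strain. The comparison asks whether genes of this arm moved with the diet, and whether they moved as the chaperones of the endoplasmic reticulum (ER) did.

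PERK, the product of Eif2ak3, is a kinase in the ER membrane that senses unfolded protein and phosphorylates the translation factor eIF2. This slows protein synthesis in general but raises translation of a few messages with upstream reading frames, among them those of ATF4, ATF5 and CHOP (the product of Ddit3), which then switch on genes of amino acid supply, redox balance and cell death. Other kinases that sense amino acid lack, viral RNA or heme deficiency feed into the same step, hence the name integrated stress response. The luminal chaperones, such as BiP (Hspa5), are induced mainly through the other ER sensors, ATF6 and IRE1. Because eIF2 phosphorylation and the translation of ATF4 act on protein, RNA levels record only part of this arm.

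ATF4 works with C/EBP proteins on a composite site, the C/EBP-ATF response element (CARE), and the chaperone promoters carry the ER stress element. The matches below are shown because these elements are the ones each gene group is known for. RefSeq promoter windows (GRCm38.p6, from 250 bases before to 50 after the annotated start) were searched on both strands for the CARE core TGATGNAA, which was in 3.97% of 32851 windows. All 10 genes had a window, and 3 of them held the core. Each is printed 5′ to 3′ on the strand of its gene, with the match in capitals and 10 bases on each side. The match lay 23 bases before the start of Asns, at chr6:7693215-7693242 on the minus strand, and 193 bases before that of Chac1, at chr2:119351039-119351066 on the plus strand. In Trib3 it lay 15 bases past the start, at chr2:152344029-152344056 on the minus strand. Chac1 and Trib3 hold the core in the opposite direction to the gene.
Asns: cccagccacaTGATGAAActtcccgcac
Chac1: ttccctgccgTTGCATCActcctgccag
Trib3: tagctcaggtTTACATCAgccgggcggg

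The ER stress element, CCAAT and CCACG with 9 bases of any kind between them, was in 0.12% of the windows. None of the 10 stress response genes held it in this window, against 7 of the 16 chaperone and folding genes that had a window. It is shown for Hspa5, the ER-resident Hsp70, at chr2:34772020-34772048 on the plus strand, 65 bases before the start. Hsp90b1, the ER-resident Hsp90, held it at chr10:86705528-86705556 on the minus strand, 107 bases before the start, with the element in the opposite direction, and once more 212 bases before the start, at chr10:86705633-86705661. Capitals mark the element, with 5 bases on each side.
Hspa5: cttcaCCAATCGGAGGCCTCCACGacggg
Hsp90b1, nearer: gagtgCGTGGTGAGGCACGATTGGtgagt
Hsp90b1, farther: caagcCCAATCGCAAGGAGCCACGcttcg

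The libraries held 13771630 to 23129576 read counts in genes with RD and 13935491 to 18545549 with HCD. Levels are given as CPM, the reads of a gene relative to its library's total after TMM scaling for library composition, and fold changes are HCD over RD. Genes count as called where the p adjusted over all genes tested was under 0.05. The hepatocyte genes Alb, Apoa1, Ttr, Cps1, Serpina1c, Apob, Tat and Hnf4a were well expressed in all 6 livers, with a summed level of 88460 to 121300 CPM with RD and 96520 to 136800 with HCD. HCD replicate 1 had 5032 counts of Xist, 0 in the other livers, and 0 counts of the Y-linked gene Ddx3y. So 1 of the 3 HCD livers came from a female, and sex was not balanced between the diets. Summed Kupffer cell markers were 111.4 to 193 CPM with RD and 153.5 to 361.3 with HCD, 7 of 7 with a log2 fold change above 0, and none was called by edgeR, while 3 had an unadjusted p under 0.05 and DESeq2 called 2. Over all 13105 genes tested, 6643 lay above 0 and 20.9% had an unadjusted p of 0.05 or less. The red blood cell genes Hba-a1 and Hbb-bs rose with HCD (log2 fold change 2.41 and 2.28, adjusted p = 0.0217 and 0.0223), while the third, Alas2, was at -0.70 (adjusted p = 0.612). Both calls were lost without HCD replicate 3 (0.0743 and 0.0744), RD replicate 1 (0.112 for both) or RD replicate 2 (0.0754 and 0.0745). The part of these markers in the results below was not tested, and in whole liver fewer cells of a type and less RNA per cell cannot be told apart.

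Across the arm, 1 of the 10 genes passed the test, Asns, which fell with HCD. Over all 13105 genes tested, 3.27% were called, of which 1.95% were called higher and 1.32% lower with HCD (255 and 173 genes, or 158 and 161 where library sizes alone were used for scaling). Sesn2, Trib3 and Chac1 had the highest fold changes but were not called at an adjusted p under 0.05. By log2 fold change 5 genes lay above 0 and 5 below, with a median of 0.18 against 0.0074 over all genes tested. The 3 HCD livers lay all on one side of the 3 RD livers for Asns and Sesn2, 2 of 10 genes, and for 27.6% of all genes. At an unadjusted p of 0.05 or less the same 2 genes passed, against 20.9% of all genes. DESeq2 called both as well, in a test that called 7.2% of genes.

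**Figure D1:**
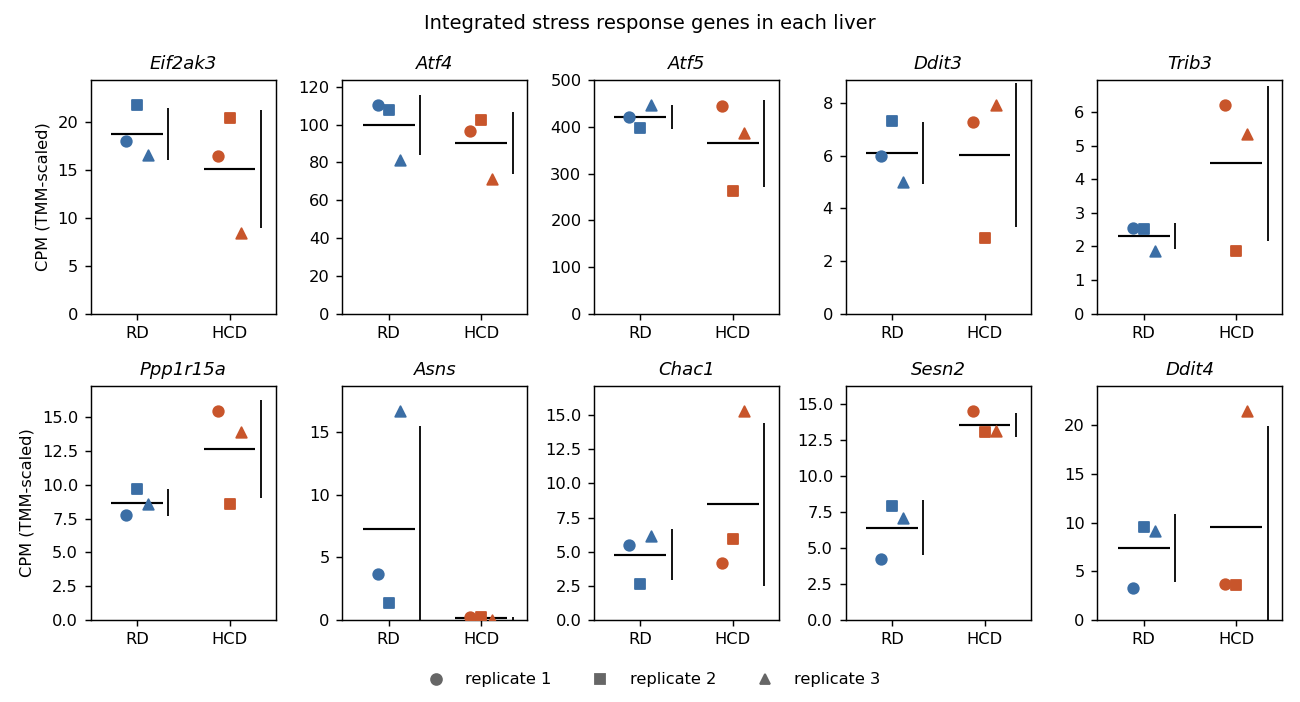
Level of each of the 10 genes in CPM (y axes, linear and starting at 0, with their own scales) in the 3 RD and 3 HCD livers. Points are livers with the replicate number as the shape, horizontal lines are means, and vertical lines are 1 SD to either side, cut at 0. Asns in the 3 HCD livers sits at or under 0.2068 CPM, below all RD livers, and Sesn2 at 13.03 to 14.51 CPM, above all of them, while the diets overlap in the other 8 genes.

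Eif2ak3 (ENSMUSG00000031668, chromosome 6 of GRCm38 from 70844515 to 70905245) encodes PERK itself. It was at 18.1, 21.8 and 16.5 CPM in RD replicates 1, 2 and 3 and at 16.5, 20.5 and 8.43 CPM in HCD replicates 1, 2 and 3. HCD replicate 3 lay below the others, and the remaining livers of both diets shared 1 range. RD livers averaged 18.8 ± 2.73 CPM (SD, n = 3) and HCD livers 15.1 ± 6.14, which is -0.31 on the log2 scale (standard error 0.29, 95% interval -0.979 to 0.365, adjusted p = 0.591, edgeR's quasi-likelihood test). That difference was -0.0325 without HCD replicate 3, -0.19 without RD replicate 2 and -0.58 without HCD replicate 2. Of its exon bases 8.0% are shared with an unclassified gene on the other strand, and whether the counting used strand is not given in the sources at hand.

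Atf4 (ENSMUSG00000042406, chromosome 15 from 80255184 to 80257541), the central transcription factor of the arm, was at 110.5, 107.6 and 81.45 CPM with RD and at 96.5, 102.5 and 71.4 CPM with HCD. Replicate 3 was the lowest liver in both diets, and the diets overlapped. The means were 99.8 ± 15.98 CPM (SD, n = 3) and 90.2 ± 16.5 CPM. The difference of -0.15 on the log2 scale (standard error 0.18, adjusted p = 0.688) had the narrowest interval among the 10 genes, from -0.559 to 0.267. It was -0.0134 without HCD replicate 3, -0.0709 and -0.0955 without RD replicate 1 or 2, and -0.25 and -0.28 without HCD replicate 2 or RD replicate 3.

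Atf5 (ENSMUSG00000038539, chromosome 7 from 44812256 to 44816658) encodes a factor related to ATF4 that is abundant in liver. It was at 421.4, 396.6 and 447.2 CPM with RD and at 444.2, 263.1 and 386.3 CPM with HCD. The RD livers lay close together, with a coefficient of variation (CV) of 5.99%, while HCD replicate 2 stood apart at the low end and brought the HCD value to 25.4%. The log2 fold change was -0.21 (standard error 0.20, adjusted p = 0.591). Leaving out HCD replicate 2 brought it to -0.0285, and leaving out HCD replicate 1 to -0.38.

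Ddit3 (ENSMUSG00000025408, chromosome 10 from 127290774 to 127296288) encodes CHOP, a factor linked to cell death under lasting ER stress. Its levels were 6.01, 7.33 and 4.99 CPM with RD and 7.28, 2.90 and 7.94 CPM with HCD. HCD replicate 2 was the lowest of the 6 livers, and the other HCD livers lay at the top of the RD range or just past it. The means of 6.11 ± 1.17 CPM (SD, n = 3) and 6.04 ± 2.74 CPM left a log2 difference of -0.012 (standard error 0.38, adjusted p = 0.988), with an interval from -0.882 to 0.857. The sign of this difference flipped with upper-quartile scaling, and it was 0.31 without HCD replicate 2 and -0.26 without HCD replicate 3. In the annotation 6.1% of its exon bases also belong to another gene identifier of the same symbol, and 68 bases to Mars on the other strand.

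Trib3 and Ppp1r15a are targets that feed back on the arm. Trib3 (ENSMUSG00000032715, chromosome 2 from 152337422 to 152344032) encodes a pseudokinase that binds ATF4 and CHOP and restrains them. It was at 2.55, 2.51 and 1.87 CPM with RD and at 6.22, 1.86 and 5.35 CPM with HCD. HCD replicates 1 and 3 lay above all RD livers and HCD replicate 2 below them, so that the diets overlapped. The log2 fold change was 0.96 (standard error 0.46, 95% interval -0.097 to 2.018) with an adjusted p = 0.278. Without HCD replicate 2 it was 1.32, with an adjusted p = 0.0878.

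Ppp1r15a (ENSMUSG00000040435, chromosome 7 from 45522916 to 45526268) encodes GADD34, which brings protein phosphatase 1 to eIF2 and so ends the response. Its levels were 7.74, 9.70 and 8.60 CPM with RD and 15.47, 8.55 and 13.9 CPM with HCD. The pattern was that of Trib3, with replicates 1 and 3 of HCD above all RD livers and replicate 2 within the RD range. The diets averaged 8.68 ± 0.982 CPM (SD, n = 3) for RD and 12.65 ± 3.635 for HCD, which is 0.55 on the log2 scale (standard error 0.25, adjusted p = 0.252).

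Asns (ENSMUSG00000029752, chromosome 6 from 7675169 to 7693254) encodes asparagine synthetase, which makes asparagine from aspartate and glutamine and is a standard readout of ATF4 activity through the CARE printed above. Its read counts were 77, 19 and 385 with RD and 4, 3 and 0 with HCD, or 3.70, 1.33 and 16.7 CPM against 0.202, 0.207 and 0 CPM. All HCD livers lay below all RD livers, and the RD livers differed among themselves by more than in any other of the 10 genes, with a CV of 114.3%. A count of 0 in HCD replicate 3 allows up to 0.243 CPM (3 counts). The log2 fold change was -5.57 (standard error 1.13, 95% interval -8.152 to -2.983, adjusted p = 0.0403). Summed over livers there were 481 counts with RD and 7 with HCD, a ratio of 57.0 per sequenced count (exact binomial 95% interval 27.4 to 142.4, counting error only). Of the RD counts, 385 came from RD replicate 3, and without that liver the ratio was 19.1 (8.93 to 48.8) and the log2 fold change -4.06.

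The Asns call rested on all but 1 of the livers. The adjusted p was 0.112 without RD replicate 1, 0.0868 without RD replicate 3, and 0.0821, 0.0890 and 0.118 without HCD replicate 1, 2 or 3, while without RD replicate 2 the call held (0.0487). On log2 of FPKM, the deposited fragments per kilobase of gene length scaled to depth, limma gave -3.91 with a pseudocount of 0.1 and -1.79 with a pseudocount of 1, with adjusted p = 0.0616 and 0.143. The direction was the same in all 16 alternatives. RD replicate 3, the liver with the highest Asns, was also the highest of the 6 livers for Slc7a2 and Got1. These were picked, after their values were seen, from 19 tested genes of amino acid synthesis and transport. The median log2 deviation of the 19 genes from their means was 0.207 in that liver, against -0.149 to 0.137 in the others. A link to Asns was not tested. The cationic amino acid carrier Slc7a2 was at 781 CPM there against 184.2 to 499.3 in the other livers. The aminotransferase gene Got1 was at 429.7 CPM against 67.1 to 273.5. Neither differed between the diets as Asns did, since both HCD replicates 1 and 3 exceeded RD replicates 1 and 2.

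Sesn2 (ENSMUSG00000028893, chromosome 4 from 132492032 to 132510501) encodes sestrin 2, a leucine sensor that restrains mTORC1 and is induced by ATF4, p53 and NRF2. It was at 4.23, 7.88 and 7.08 CPM with RD and at 14.5, 13.0 and 13.1 CPM with HCD. All HCD livers lay above all RD livers, and the HCD livers were close to each other, with a CV of 6.09% against 30.0% with RD. The means were 6.40 ± 1.92 CPM (SD, n = 3) and 13.6 ± 0.825 CPM, or 2.13-fold by the fitted log2 fold change of 1.09 (standard error 0.25, 95% interval 0.513 to 1.663). Its p of 0.00221 gave an adjusted p = 0.0560 in edgeR, just over the threshold. The adjusted p was 0.00838 in DESeq2 and 0.0309 in edgeR without a filter on low counts, and between 0.0949 and 0.166 when 1 liver was left out.

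Chac1 and Ddit4 turned on single livers. Chac1 (ENSMUSG00000027313, chromosome 2 from 119351229 to 119354381) encodes an enzyme that breaks down glutathione. Its levels were 5.48, 2.65 and 6.17 CPM with RD and 4.15, 5.93 and 15.3 CPM with HCD. HCD replicate 3 was more than any RD liver, and the other HCD livers lay within the RD range. The log2 difference of 0.80 (standard error 0.51, adjusted p = 0.409) became 0.056 without HCD replicate 3 and 0.52 without RD replicate 2.

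Ddit4 (ENSMUSG00000020108, chromosome 10 from 59949669 to 59951834) encodes REDD1, an inhibitor of mTORC1 that also answers to glucocorticoids and low oxygen. It was at 3.32, 9.56 and 9.16 CPM with RD and at 3.69, 3.59 and 21.5 CPM with HCD. Here too HCD replicate 3 was the highest liver, while the other HCD livers sat beside the lowest RD liver. The log2 fold change of 0.37 (standard error 0.71, 95% interval -1.246 to 1.987, adjusted p = 0.804) turned to -1.01 without HCD replicate 3 and shrank to 0.0154 without RD replicate 1. It was 0.0165 and 0.0448 in limma on FPKM with a pseudocount of 0.1 or 1.

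**Figure D2:**
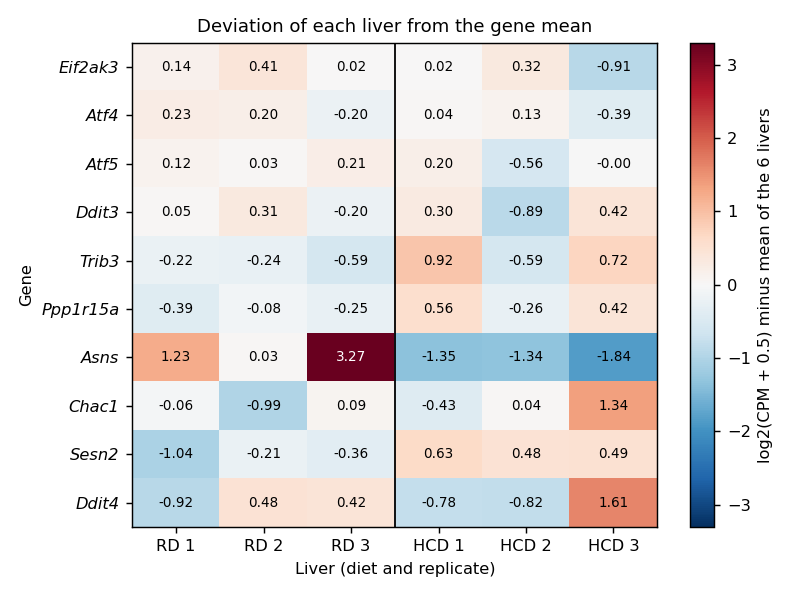
Deviation of each liver (columns) from the mean of the 6 livers for each gene (rows), as log2 of CPM plus 0.5, with the value printed in each cell and the vertical line between the diets. HCD replicate 2 is at -0.59 for Trib3 and -0.89 for Ddit3 where HCD replicates 1 and 3 are above 0, HCD replicate 3 leads Chac1 (1.34) and Ddit4 (1.61), and RD replicate 3 leads Asns (3.27).

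The HCD livers thus did not share 1 profile over the 10 genes. HCD replicate 1 was the highest of the HCD livers for Trib3, Ppp1r15a and Sesn2, and HCD replicate 3 for Ddit3, Chac1 and Ddit4 while it was the lowest of all livers for Eif2ak3 and Atf4. Without HCD replicate 1, the liver of the female, the log2 fold changes were -5.96 for Asns, 1.04 for Sesn2 and 0.64 for Trib3, and none of the 10 was called. The biological coefficient of variation, edgeR's spread between livers of a diet beyond counting, was 71.3% for Asns and 58.8% for Ddit4, higher than for 97.39% and 94.64% of the genes tested. For Atf4 it was 19.1%, higher than for 34.93%, and the median gene was at 22.41%.

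Levels can be compared between genes on the deposited FPKM. Atf5 had the highest level of the 10 with RD, 309 ± 25.02 FPKM (SD, n = 3), followed by Atf4 at 61.7 ± 8.85. The 3 RD livers of Atf5 did not overlap those of Atf4, nor those of Atf4 the next gene. From Ddit4 at 6.12 FPKM through Ddit3, Eif2ak3, Ppp1r15a, Chac1 and Asns to Sesn2 at 2.69, each gene overlapped its neighbour in the order. Sesn2 (up to 3.25 FPKM) nevertheless lay below all RD livers of Ddit3, Eif2ak3 and Ppp1r15a. Trib3 had the lowest mean, 1.58 ± 0.236 FPKM, below every RD liver of Sesn2 but within the wide range of Asns, which ran from 0.695 to 9.13 FPKM. With HCD, Atf5 (273 FPKM) and Atf4 (56.7 FPKM) still led, and Asns (0.0736 FPKM) was the lowest, under Trib3 at 3.15.

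Several luminal chaperones fell with HCD. Hspa5 was at 1938, 2014 and 1272 CPM with RD and at 512.5, 866.3 and 730.1 CPM with HCD. All HCD livers lay below all RD livers, by -1.31 on the log2 scale (standard error 0.26, adjusted p = 0.0354). That call was lost without RD replicate 1 (adjusted p = 0.145), RD replicate 2 (0.148) or HCD replicate 3 (0.101), and with the correction for gene length (0.0504). Of 20 chaperone and folding genes, 5 were called lower and 1 higher (8 and 1 by DESeq2), with a median log2 fold change of -0.57, against 0.0074 over all genes tested. The 6 calls became 4 and 6 without HCD replicate 1 or 2, 1 without HCD replicate 3, 3 without RD replicate 3 and 0 without RD replicate 1 or 2. The study singled out ER protein processing in these same samples, so this count is not independent evidence of its direction.

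Among the chaperone genes, Creld2, an ER folding factor, fell by 2.02 on the log2 scale (adjusted p = 0.0282). Pdia4, a disulfide isomerase, fell by 1.13 (adjusted p = 0.0136), and Hsp90b1 fell by 0.97 (adjusted p = 0.0258). Fkbp2, a prolyl isomerase, rose by 0.61 (adjusted p = 0.0351). Without RD replicate 1 all 4 calls were lost, with adjusted p = 0.117 for Creld2, 0.0903 for Pdia4, 0.130 for Hsp90b1 and 0.135 for Fkbp2, and without RD replicate 2 they were 0.122, 0.0748, 0.119 and 0.167. Without HCD replicate 3 the adjusted p was 0.101 for Creld2, 0.0615 for Hsp90b1 and 0.0903 for Fkbp2. Hsp90b1 was also lost without RD replicate 3 (0.0568), and Fkbp2 without RD replicate 3 (0.102), HCD replicate 1 (0.0585) or HCD replicate 2 (0.0667). With the length correction or library sizes alone the Fkbp2 call was lost as well (0.0993 and 0.0929). The replicate block lost Hsp90b1 (0.066) and Fkbp2 (0.0757) and kept Creld2 and Pdia4 (0.04895 for both). Hsp90b1 shares a stretch of 273 bases with a pseudogene, between which reads could have been split.

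**Figure D3:**
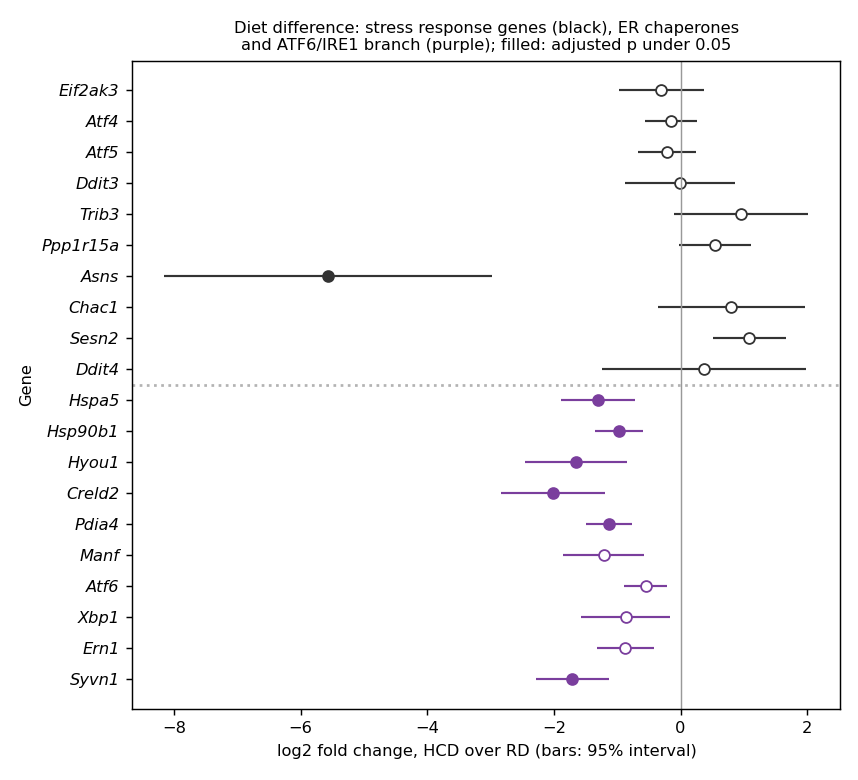
Log2 fold change of HCD over RD (x axis) with its 95% interval for the 10 stress response genes (black) and for chaperones and genes of the ATF6 and IRE1 branch (purple). Filled points have an adjusted p under 0.05, and of the stress response genes this is Asns at -5.57, while Hspa5 is at -1.31 and Syvn1 at -1.71.

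Each gene was set against Hspa5 within its own liver, as the log2 ratio of CPM with 0.5 added to both. Because Hspa5 fell by 1.31 on this scale, a gene that did not change at all shows a ratio 1.31 higher with HCD, and 98.5% of the 13104 other genes tested had a higher ratio. The ratio was above that no-change level in 5 of the 10 genes, though in Ddit4 (1.32) hardly, and below it in 5, so that each difference below contains the fall of Hspa5. For Sesn2 the ratios were -8.68, -7.91 and -7.39 with RD and -5.10, -6.00 and -5.74 with HCD, which is 2.38 higher with HCD. For Atf4 they were -4.13, -4.22 and -3.96 with RD and -2.40, -3.07 and -3.35 with HCD, 1.16 higher. In both genes the diets did not overlap, and the same held for Trib3, Chac1 and Ppp1r15a, whose ratios were 2.01, 1.95 and 1.79 higher. The ratios of 77.8% of all genes were apart in the same way, so these 5 of 10 say nothing particular of the arm.

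For these 5 genes the exact two-sided permutation test gave p = 0.1, the smallest that 3 livers against 3 can give, so that none of the 10 ratios could pass 0.05. Eif2ak3, Atf5, Ddit3 and Ddit4 were 0.93 to 1.32 higher relative to Hspa5, with overlapping diets (exact permutation p = 0.2 to 0.3). For Asns, with 4, 3 and 0 counts in the HCD livers, the added 0.5 CPM exceeds the levels themselves and sets the ratio. With it Asns was 1.71 lower relative to Hspa5 and the diets overlapped (exact permutation p = 0.2), or 0.62 lower without RD replicate 3. In an alternative chosen after seeing the data, with nothing added and the count of 0 taken as 3 counts, Asns was at least 3.01 lower and the diets did not overlap (exact permutation p = 0.1). The other 9 genes kept their overlap or lack of it there, at 0.91 to 2.44 higher. Ddit4 went from 1.32 to 0.56 without HCD replicate 3 and to 0.77 without RD replicate 1. Without HCD replicate 1, Eif2ak3 went from 0.93 to 0.61 and Atf5 from 1.07 to 0.70. The level of a gene with no change also moved when a liver was left out, between 1.10 (without HCD replicate 1) and 1.52 (without RD replicate 3). With Hsp90b1 in place of Hspa5 it was 0.98, and all 10 differences were 0.33 lower. That common shift is fixed by the change of denominator, so the place of the genes relative to it could not move. The exact permutation p went from 0.2 to 0.1 for Atf5 and Asns, from 0.2 to 0.4 for Eif2ak3 and from 0.3 to 0.6 for Ddit4. In the other genes it stayed the same. All 10 ratios share the same Hspa5 values and are not independent of each other.

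**Figure D4:**
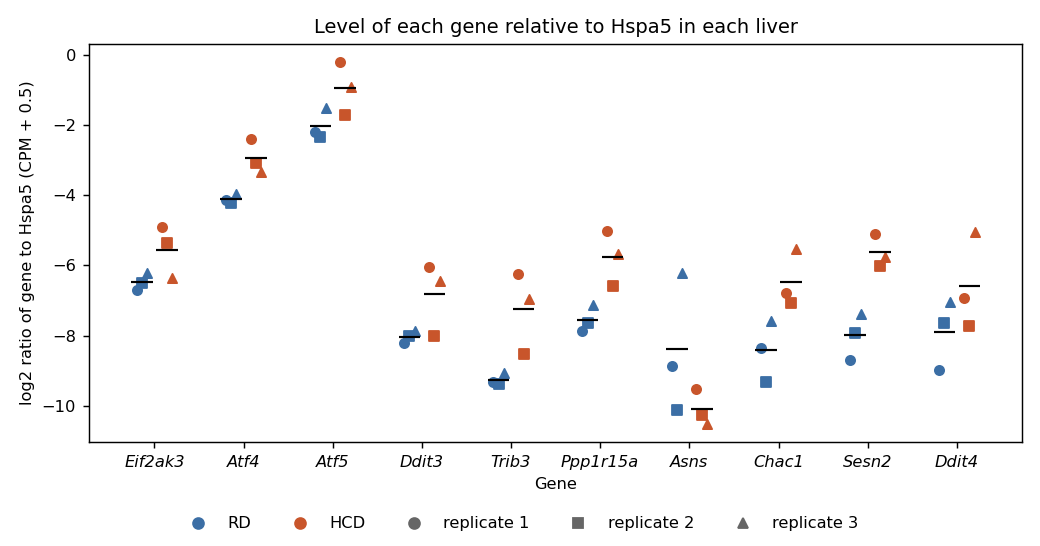
Log2 ratio of each gene to Hspa5 in the same liver (y axis, from CPM plus 0.5) for RD (blue) and HCD (orange), with the replicate number as the shape and the diet mean as a line. The HCD means lie above the RD means by 0.93 to 2.38 in 9 genes, where a gene with no change at all would lie 1.31 above through the fall of Hspa5, and the Asns mean lies 1.71 below, a place set by the added 0.5 CPM since its HCD livers are at or under 0.2068 CPM.

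The genes of the ATF6 and IRE1 branch lay below 0. All 14 of them had a log2 fold change below 0, against 6462 of all 13105 genes, with a median of -0.57. Of the 14, 2 were called lower (3 and 4 without HCD replicate 1 or 2, and 0 without HCD replicate 3 or RD replicate 1 or 2). Syvn1, the ubiquitin ligase of ER-associated degradation, fell by 1.71 (adjusted p = 0.0168) and its partner Sel1l by 1.00 (adjusted p = 0.0258). Both calls were lost without RD replicate 1 (adjusted p = 0.0875 and 0.128), RD replicate 2 (0.0754 and 0.126) or HCD replicate 3 (0.0742 and 0.0840). The sensors Atf6 and Ern1 (IRE1) were at -0.55 (adjusted p = 0.0900) and -0.87 (adjusted p = 0.0526), and Xbp1, the message that IRE1 splices, at -0.87 (adjusted p = 0.162). DESeq2 called 7 of the 14 lower, these 3 among them (adjusted p = 0.0399, 0.00135 and 0.0154). Ern1 was also called without a filter on low counts (0.0214) and without HCD replicate 2 (0.0369). The study reported Syvn1, Sel1l, Xbp1, Atf6 and Ern1 as lower in these same samples, so these counts are not independent evidence.

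The printed elements can also be followed over all genes with a promoter window. Of 18 tested genes with the ER stress element, 5 were called (27.8%), all lower, namely Creld2, Acacb, Syvn1, Hspa5 and Hsp90b1. All but Acacb are chaperone or ATF6 and IRE1 genes already counted above, so these calls are not separate evidence. A log2 fold change below 0 was found in 14 of the 18, against 4916 of the 9777 tested genes with a window. Outside the lists above, Acacb, Alg12, Pan2, Xlr3a and Gm6566 lay below 0 and Hnrnpa3, Adcy3, Acnat2 and Spats2l above. Of 267 tested genes with the CARE core, 1.87% were called higher and 2.25% lower. The shares over all 9777 tested genes with a window were 1.69% and 1.27%. These are counts of letters in a window, with no test.

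The kinases and the eIF2 cycle gave no call either. None of 16 genes was called by edgeR or DESeq2, none had an unadjusted p under 0.05, and the median log2 fold change was -0.14. The other eIF2 kinases were at 0.21 for Eif2ak1 (HRI, the heme sensor), -0.54 for Eif2ak2 (PKR, the sensor of double-stranded RNA) and -0.12 for Eif2ak4 (GCN2, the amino acid sensor). The diets did not overlap for Eif2ak1 and Eif2ak2. The same held for 4 of the 16 genes in all, against 27.6% of all genes. Eif2ak2 was at -0.32 without HCD replicate 3, and Eif2ak4 at 0.0725 without that liver and -0.33 without HCD replicate 1. Ppp1r15b, the constitutive counterpart of GADD34, was at -0.05, flipping in sign with the length correction and without HCD replicate 3 or RD replicate 1, and the phosphatase subunit Ppp1ca at 0.27 (0.42 without RD replicate 1 and 0.17 without RD replicate 2). Dnajc3, an inhibitor of PERK and an ER cochaperone, was at -0.25, with -0.12 and -0.42 without HCD replicate 1 or 2.

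Other genes that supply amino acids gave no call. Of 19 tested genes of amino acid synthesis and transport none was called by edgeR or DESeq2 and none had an unadjusted p under 0.05, with a median of -0.15. Cbs and Cth, the enzymes of transsulfuration, were at -0.27 and -0.18. Without RD replicate 3 they were at -0.0746 and 0.25, and without HCD replicate 3 Cbs was at -0.43 while without RD replicate 2 Cth was at -0.40. The 20 cytosolic aminoacyl-tRNA synthetases had a median of -0.13, and edgeR called none (1 without HCD replicate 2), although 5 were lower at an unadjusted p under 0.05 and DESeq2 called 1. At that unadjusted p, 1286 of all 13105 genes were lower. Nars, which charges the tRNA for asparagine, was at -0.44 (adjusted p = 0.110), with the diets apart, and Aars at -0.33, or -0.15 without HCD replicate 1. The CARE core was in 5 of the 12 synthetase genes that had a promoter window.

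Of 23 other tested targets of ATF4 and CHOP, edgeR called 1 and DESeq2 called 5 (3 higher and 2 lower). The unadjusted p was under 0.05 for 3 genes with more CPM in HCD and 4 with less, against 1453 and 1286 of all 13105 genes. The median log2 fold change was -0.03. The edgeR count was 3 without HCD replicate 1, the female liver, and 0 without any of the other 5 livers. Gdf15, a secreted stress hormone, was at 3.08, 9.28 and 3.08 CPM with RD and at 19.4, 18.5 and 47.1 CPM with HCD. It rose by 2.49 (standard error 0.53, adjusted p = 0.0453), and all HCD livers lay above all RD livers. The call held in 7 of the 16 alternatives. The adjusted p was 0.0645 with the length correction, 0.0557 and 0.0519 with limma on FPKM plus 0.1 or 1, 0.0564 and 0.115 without HCD replicate 2 or 3, and 0.170, 0.0503 and 0.109 without RD replicate 1, 2 or 3.

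Fgf21, a liver hormone induced in starvation, and Atf3, an early stress factor, were at 0.89 (adjusted p = 0.536) and 0.94 (adjusted p = 0.495), both from levels under 6 CPM. Without HCD replicate 1 they were at -0.10 and -0.25, and without HCD replicate 3 Fgf21 was at 1.34 while without RD replicate 3 Atf3 was at 0.61.

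The 4 genes of this list that DESeq2 alone called are named after their values were seen. Vldlr, a lipoprotein receptor, was at 0.0961, 0.140 and 0.868 CPM with RD and 24.9, 0.965 and 2.43 CPM with HCD. All HCD livers lay above all RD livers, with HCD replicate 1 far above the rest. Its log2 fold change was 4.58 (adjusted p = 0.0980, and 0.0347 in DESeq2). Cebpb, a liver transcription factor, at 1.02 (adjusted p = 0.110, and 0.00466 in DESeq2), was higher in HCD replicates 2 and 3 than in any RD liver. Vegfa, a growth factor for blood vessels, was at 114.8, 100.2 and 102.3 CPM with RD and 83.09, 57.84 and 64.11 CPM with HCD. Its diets did not overlap, at a log2 difference of -0.63 (adjusted p = 0.0726, and 0.0139 in DESeq2). Trib1, a pseudokinase related to Trib3, was at 89.2, 47.7 and 27.5 CPM with RD and at 26.7, 27.2 and 27.96 CPM with HCD, a log2 difference of -1.01 (adjusted p = 0.163, and 0.0202 in DESeq2).

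**Figure D5:**
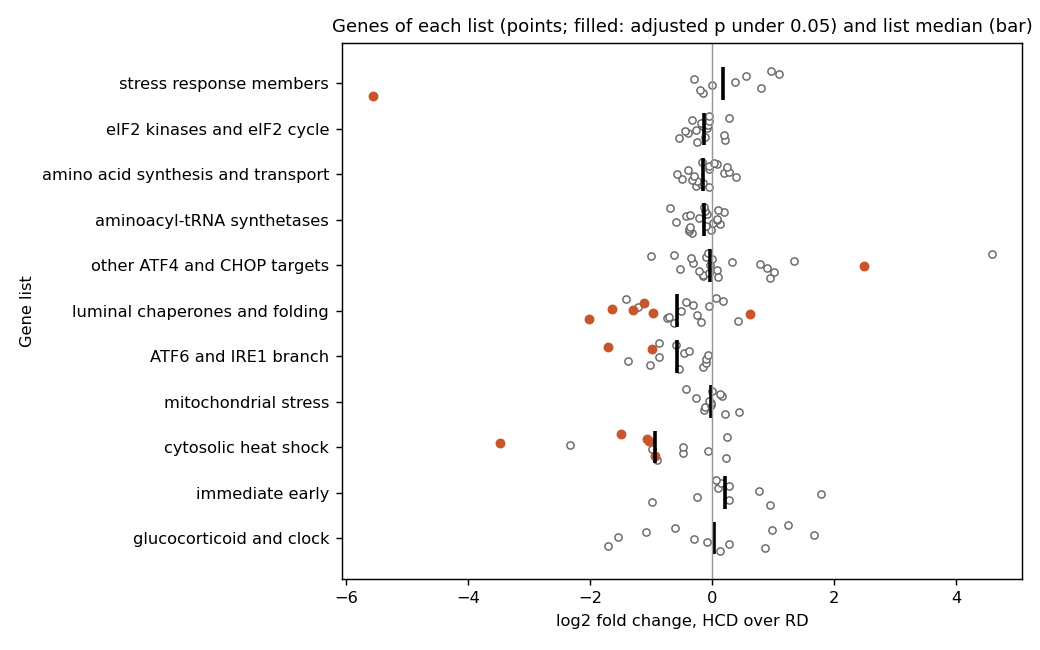
Log2 fold change of HCD over RD (x axis) for the tested genes of each list (points, spread vertically for legibility), with filled points for an adjusted p under 0.05 and a bar at the list's median. The median is 0.18 for the 10 stress response genes, -0.57 for the luminal chaperones and -0.94 for cytosolic heat shock genes, and Gdf15 is the called gene to the right among other ATF4 and CHOP targets.

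Companion stress programs were counted in the same way. Of 13 cytosolic heat shock genes, 5 were called lower (7 by DESeq2), with a median of -0.94. The count was 4 without HCD replicate 1 or 2, 1 without HCD replicate 3, 3 without RD replicate 3 and 0 without RD replicate 1 or 2. They include Hspa8, the constitutive Hsp70, at -1.08 (adjusted p = 0.0289), Hspa4l at -1.05 (adjusted p = 0.0130) and Hspa1b, an inducible Hsp70, at -3.48 (adjusted p = 0.0376). Whether Hspa1b shares reads with other Hsp70 genes was not checked. The study reported Hspa8, Hspa4l and Hspa1b as lower in these same samples, so this count is not independent evidence of its direction. Without RD replicate 1 their adjusted p was 0.130, 0.0649 and 0.128, and without RD replicate 2 it was 0.126, 0.0541 and 0.126. Hspa8 was also lost without HCD replicate 3 (0.0874) and with the replicate block (0.0567), and Hspa1b without HCD replicate 1, 2 or 3 (0.0796, 0.0747 and 0.124) and in limma on FPKM with a pseudocount of 0.1 or 1 (0.0757 and 0.0833).

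Mitochondrial chaperones and proteases, which share ATF5 as a regulator, had a median of -0.02 over 12 genes. None was called by edgeR or DESeq2, with 2 at an unadjusted p under 0.05, and Hspd1 and Hspa9 were both at -0.02 with a sign that flipped under upper-quartile scaling and between -0.18 and 0.10 over the omissions of 1 liver. Of 10 tested immediate early genes edgeR called none, with 2 at an unadjusted p under 0.05 and 2 called by DESeq2 (1 by edgeR without HCD replicate 2). Ier2 and Zfp36 were at 0.76 and 0.06, and Zfp36 was at -0.17 without HCD replicate 3 and 0.36 without RD replicate 3. Of 12 tested glucocorticoid and clock genes edgeR called none, with 6 at an unadjusted p under 0.05 and 4 called by DESeq2. For the lists of this paragraph, the shares over all genes were 20.9% at an unadjusted p and 7.2% by DESeq2. The edgeR count was 2 without HCD replicate 1 and 1 without RD replicate 3. Tsc22d3, a glucocorticoid target as Ddit4 is, was at 1.24 (adjusted p = 0.0958, and 0.00109 in DESeq2) and at 0.70 without HCD replicate 3. Tat, a liver enzyme gene, was at -0.62, at 0.17 without RD replicate 3 and at -1.01 without RD replicate 1.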

How the data were processed

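Liver RNA was extracted with the RNeasy Kit, and libraries, sequencing and processing were done by Novogene. The submitters' processing notes name STAR, HTSeq, DESeq2 and edgeR and the genome build GRCm39, with no versions. The deposited count table holds raw whole-number reads for each gene. FPKM, also deposited by the authors, were used to compare levels between genes and in 2 alternatives. Their table also holds columns of fold changes and p-values of the same comparison, which were not used. Groups came from the sample titles. Gene lengths behind the FPKM matched GENCODE M21 within 0.1% for 95.0% to 95.1% of genes, and positions are given from that annotation on GRCm38.

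Counts were analysed with edgeR 4.0.16 in R 4.3.3 (filterByExpr by diet, TMM factors of 0.886 to 1.07, glmQLFit and glmQLFTest without covariates, Benjamini-Hochberg over 13105 genes). An adjusted p under 0.05 was a call, and 95% intervals used the standard error and the test's degrees of freedom. Ratios to Hspa5 were tested by exact two-sided permutation over 20 assignments. The spread between livers, with a common biological CV of 27.8%, sets the precision, and intervals on counts cover counting error only. The labels do not say more of the replicates than 1 liver each.

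The 10 genes, the 10 companion lists and the 9 marker lists were chosen with earlier results of these data known. Besides the 10 genes, the text names Hspa5, Hsp90b1, Xbp1, Atf6, Ern1, Atf3, Fgf21, Gdf15, Ppp1r15b and the other eIF2 kinases. From each companion list it names the called genes with the smallest p, up to 3 higher and 3 lower, and where none is called the 2 genes of highest mean FPKM. Symbols not matched in the tables (such as Gcn1 and Slc7a11) were not analysed here. The endothelial, stellate and cholangiocyte markers had no member called by edgeR or DESeq2, or with an unadjusted p under 0.05, and the same held for the 3 of 7 leukocyte and 1 of 8 exocrine pancreas markers that could be tested. No fat marker could be tested.

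Alternatives were DESeq2 1.42.0, upper-quartile or RLE factors, scaling by library size, no filter, a mean of at least 50 counts, a loess correction of the trend with gene length, limma-trend 3.58.1 on log2 of FPKM plus 1 or 0.1, a replicate block and each liver left out. Where a diet was left with 2 livers, both diets shared 1 spread. Transcripts of the 10 genes, Hspa5 and Hsp90b1 were aligned with minimap2 2.31 to find copies of at least 200 bases and 90% identity. None was found for the 10 genes at these limits, and other genes were not searched. Figures were drawn with matplotlib 3.10.9.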

Additional observations from a re-analysis of the deposited data

How the results depend on the processing

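The number of all genes called was 428, against 995 with DESeq2, 251 with the length correction, 649 without a filter on low counts, 136 with the replicate block, 2739 at an unadjusted p and 36 to 335 when 1 liver was left out. Of the 10 stress response genes 1 was called, against 2 with DESeq2, 2 without a filter, 2 at an unadjusted p, 0 with limma on FPKM at either pseudocount, 0 with the replicate block and 0 to 1 when 1 liver was left out. Every call among the 10 under these alternatives was of Asns or Sesn2. Livers with the same replicate number did not deviate together (r of -0.0761, 0.0879 and -0.0413 for numbers 1, 2 and 3), so the block has no known meaning here.

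Several log2 fold changes changed sign, most of them near 0 but some, such as those of Atf3, Fgf21, Tat and Ddit4, not. Ddit3 was at 0.0076 with a mean of at least 50 counts and 0.0263 with upper-quartile factors, and between -0.257 and 0.314 when 1 liver was left out. Over the same omissions Ddit4 ranged from -1.01 to 0.77, Atf3 from -0.25 to 1.40, Fgf21 from -0.10 to 1.34, Eif2ak4 from -0.329 to 0.0725, Cth from -0.40 to 0.25, Zfp36 from -0.17 to 0.36 and Tat from -1.01 to 0.17. Ppp1r15b was at 0.0260 with the length correction and between -0.136 and 0.0198 over the omissions. Hspd1 was at 0.0133 and 0.0131 with limma on FPKM and 0.0087 with upper-quartile factors (-0.18 to 0.10 over the omissions), and Hspa9 at 0.0134 with the length correction and 0.0147 with upper-quartile factors (-0.144 to 0.0503). The cause was not tested. The other 8 stress response genes and Hspa5 kept their direction under all 16 alternatives. Scalings moved the median of all genes by -0.0633 to 0.0338. With the replicate block the adjusted p was 0.0669 for Hspa5, 0.0887 for Gdf15 and 0.0490 for Ern1. The 95% intervals of Trib3, Chac1, Ddit3 and Ddit4 include both 0 and differences of 0.857 to 2.018 on the log2 scale, so neither is settled by 3 livers per diet.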
